A study of Homo sapiens with 10 samples.

Results

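Aminoacyl-tRNA synthetases join each amino acid to its tRNA, and these data show how the messenger RNAs of the whole family changed when SOX4 was knocked down in DU145 cells. The members are the genes of the deposited expression table whose symbol is 1 letter followed by ARS, with or without a final 1 or 2, together with EPRS, FARSA, FARSB, QRSL1 and the complex scaffolds AIMP1, AIMP2 and EEF1E1. The rule found 41 of the 13527 features in the table. Of these, 23 are cytosolic (20 synthetase genes and 3 scaffolds) and 18, those ending in ARS2 and QRSL1, are mitochondrial. DU145 is an established prostate cancer cell line. RNA-seq compared 3 libraries of DU145 with a scramble hairpin (shCon) with 3 libraries of DU145 with a SOX4 knockdown hairpin (shSOX4), cultured alike in DMEM with fetal bovine serum and no treatment. The series also holds 2 Vector and 2 oeSOX4 (SOX4 overexpression) ATAC-seq libraries, which were not analysed here. The sources used here do not say how many hairpin sequences were used or whether either line is 1 clone.

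A synthetase activates its amino acid with ATP and transfers it to the matching tRNA, so the set of synthetases fixes the genetic code. In human cells most amino acids have 2 nuclear genes, 1 for the cytosol and 1 for mitochondria, where the enzyme charges the tRNAs encoded by mitochondrial DNA. There are exceptions. GARS and KARS each make the enzyme of both compartments from 1 gene, EPRS charges both glutamate and proline, FARSA and FARSB are the subunits of 1 enzyme, and mitochondria make glutaminyl-tRNA by letting EARS2 charge the tRNA with glutamate, which the amidotransferase that holds QRSL1 then converts. Several cytosolic synthetases sit in a large complex held together by AIMP1, AIMP2 and EEF1E1. Uncharged tRNA activates the kinase GCN2 (EIF2AK4), which starts the integrated stress response, and its transcription factor ATF4 is known to induce genes of amino acid supply and a group of cytosolic synthetases.

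ATF4 is known to bind, with C/EBP partners, a C/EBP-ATF response element whose core is TGATGNAA, so the promoters of the members were searched for these letters on both strands (TTNCATCA on the other). RefSeq promoter windows (GRCh38.p14, 250 bases before to 50 after the start) matched 34 of the 41 members. Only 1 window of each gene was kept, so any other start of a gene was not searched. The motif stood in 7 of the 34 windows (20.6%), in 3.67% of all 27305 windows and in 1.60% of the windows of genes in the table. Of the 7, 6 belong to cytosolic synthetases (of 19 with a window) and 1 to a mitochondrial one (of 15). The 30-base stretches around the matches are printed 5′ to 3′ on the strand of each gene to show how alike they are, with the motif in capitals.
AARS: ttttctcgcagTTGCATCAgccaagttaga
MARS: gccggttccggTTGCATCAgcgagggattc
CARS: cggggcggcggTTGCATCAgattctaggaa
IARS: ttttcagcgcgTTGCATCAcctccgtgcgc
TARS: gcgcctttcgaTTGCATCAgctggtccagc
NARS: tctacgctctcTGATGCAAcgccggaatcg
YARS2: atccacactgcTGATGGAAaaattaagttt

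All 6 cytosolic matches hold the same 8 letters, TTGCATCA or, in NARS, their reverse complement. That exact form stood in 6 member windows and in 0.923% of all windows. The stretches lie at chr16:70289675-70289704 (AARS, minus strand), chr12:57488053-57488082 (MARS, plus), chr11:3057407-3057436 (CARS, minus), chr9:92293692-92293721 (IARS, minus), chr5:33440956-33440985 (TARS, plus), chr18:57621804-57621833 (NARS, minus) and chr12:32756076-32756105 (YARS2, minus). The first base of the motif is at -187 in AARS, -13 in IARS, -4 in MARS and -2 in CARS, counted with -1 as the last base before the start, and at 3 in TARS and 15 in NARS, counted with 1 as the start. It is at -197 in YARS2. Within the 250 bases before the start alone, only the matches of AARS, IARS and YARS2 are whole. A match is a description of the letters and does not show binding.

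The 6 libraries held 31189910 to 43361609 counts each, and the member with the fewest reads had at least 190 counts in every library. SOX4, the targeted gene, was at 12.9, 10.1 and 8.48 CPM (counts scaled to library size, here with the trimmed mean of M-values, TMM) in shCon 1, 2 and 3 and at 4.55, 6.44 and 6.01 CPM in shSOX4 1, 2 and 3. Every shSOX4 library was below every shCon library, a log2 fold change of -0.89 (standard error 0.236, adjusted p = 0.0111, edgeR), lost without shCon 1. Of the principal components of log2 CPM, the second (15.7% of the variance) set shCon 3 and shSOX4 1 apart from the other 4 libraries. All 6 epithelial markers checked (EPCAM, CDH1, KRT7, KRT8, KRT18, KRT19) were in the table, with a summed level of 4474 to 7179 CPM in shCon and 8887 to 10113 CPM in shSOX4. Of the luminal prostate markers 3 of 6 were in the table (9.01 to 15.3 CPM in shCon, 12.9 to 20.1 in shSOX4), of the neuroendocrine 1 of 6 (25.9 to 40.2 and 22.4 to 27.8 CPM), of the leukocyte only CD68 of 5 (95.2 to 113 and 44.1 to 52.1 CPM), of the endothelial 1 of 4 (0.525 to 0.942 and 4.70 to 6.62 CPM) and of the fibroblast 3 of 6 (1.69 to 2.48 and 9.55 to 16.0 CPM). The endothelial gene was below 1 CPM in every shCon library. Every feature in the table has at least 1 CPM in at least 3 libraries, so this gene is present only through shSOX4. The part of the marker shifts in the changes of the synthetases was not tested. In bulk RNA fewer cells of a type and less RNA per cell cannot be told apart.

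The members went both ways. Of all features 15.8% fell in shSOX4 and 17.0% rose (32.8% changed) at a Benjamini-Hochberg adjusted p under 0.05 (edgeR quasi-likelihood test, used for every adjusted p below unless another tool is named). Among the 23 cytosolic members 7 fell (30.4%) and 5 rose (21.7%), with a median log2 fold change of 0.15 against -0.01 over all features. Those that fell were all synthetases: AARS, MARS, WARS, YARS, QARS, GARS and CARS. Those that rose were RARS, HARS and TARS and the scaffolds AIMP1 and EEF1E1. Among the 18 mitochondrial members 3 fell (16.7%: EARS2, VARS2 and TARS2) and 2 rose (11.1%: RARS2 and WARS2), shares near those of all features, with a median of 0.07. Without both shCon 3 and shSOX4 1, where 19.5% of features fell and 21.4% rose, 8 cytosolic members fell and 7 rose, and 4 mitochondrial members fell and 4 rose. The mitochondrial rises were the least steady count: 0 without shSOX4 2 or shSOX4 3 (2 at an unadjusted p under 0.05 in edgeR each time), 1 without shCon 1 or shCon 2, and 4 without shSOX4 1. Rises over all features moved too: 2295 in the main fit, 1411 without shSOX4 2, 1677 without shSOX4 3 and 2653 without shSOX4 1. They were 1995 without shCon 1 and 1797 without shCon 2. Whether the 2 compartments differ as sets was not tested.

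**Figure D1:**
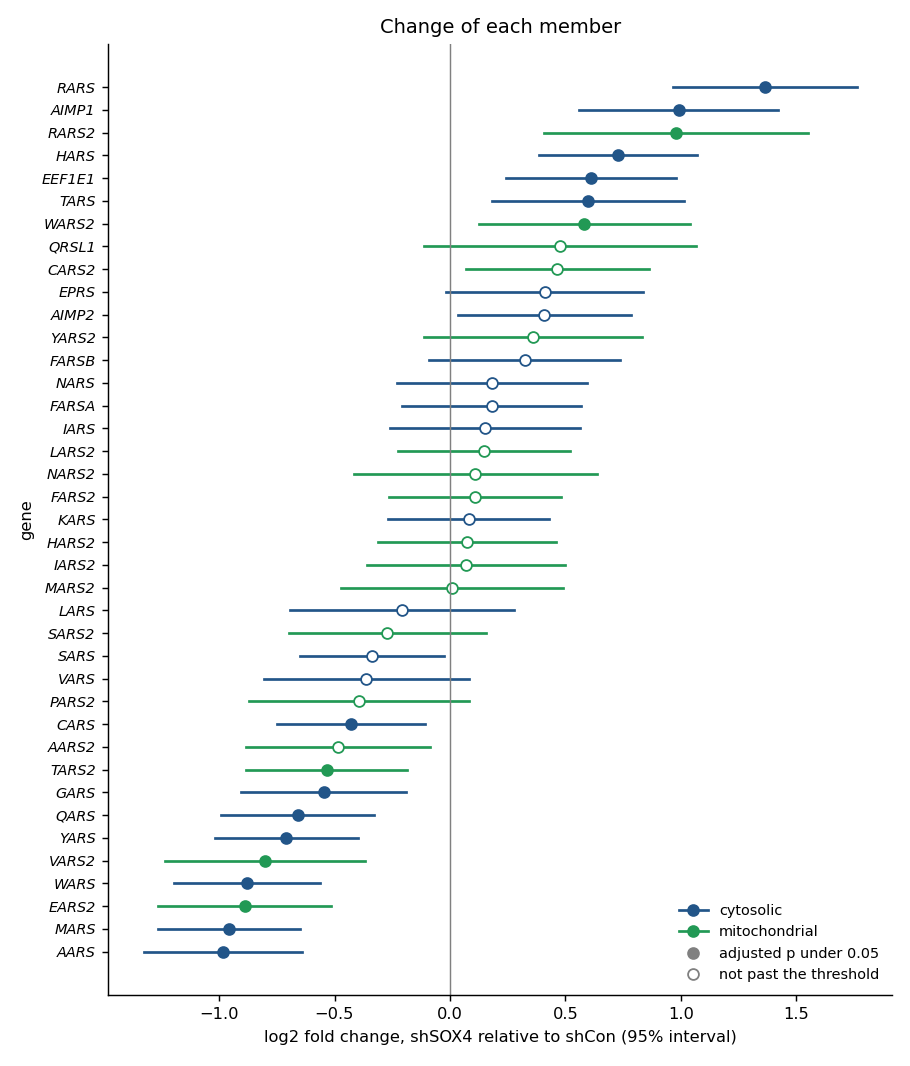
Log2 fold change of each of 39 members, shSOX4 relative to shCon, with its 95% interval (x axis, genes in rows); blue is cytosolic, green mitochondrial, and filled points have an adjusted p under 0.05. Of the blue points 7 are filled on the left and 5 on the right, and of the green 3 and 2; RARS at 1.36 is farthest right and AARS at -0.98 farthest left.

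AARS charges tRNA with alanine and was the member with the most reads. Its levels were 1012, 1045 and 1259 CPM in shCon 1, 2 and 3 and 646, 543 and 489 CPM in shSOX4 1, 2 and 3. The lowest control library stood well above the highest knockdown library. AARS had a log2 fold change of -0.98 (standard error 0.160, adjusted p = 0.000527), so that 50.6% remained. MARS, the methionine enzyme, which also supplies the tRNA that starts every protein, had 666, 679 and 741 CPM in shCon and 369, 347 and 358 CPM in shSOX4. The groups did not overlap, and the knockdown libraries lay close together. Its log2 fold change was -0.96 (standard error 0.144, adjusted p = 0.000278), with 51.5% remaining.

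WARS, the tryptophan enzyme, which is also known as an interferon-induced gene, had 303, 335 and 348 CPM in shCon and 180, 178 and 178 CPM in shSOX4. Its 3 knockdown libraries were nearly equal (179 ± 1.06 CPM, SD, n = 3) and all below the controls. WARS had a log2 fold change of -0.88 (standard error 0.148, adjusted p = 0.000666). YARS, the tyrosine enzyme, had 395, 411 and 413 CPM in shCon against 242, 241 and 262 CPM in shSOX4. No control library came near the knockdown range, and 61.2% remained (log2 fold change -0.71, standard error 0.145, adjusted p = 0.00248). QARS charges glutamine within the multi-synthetase complex. It had 241, 239 and 275 CPM in shCon and 176, 158 and 144 CPM in shSOX4, with no overlap, and had a log2 fold change of -0.66 (standard error 0.155, adjusted p = 0.0059). These 5 calls held in all 16 alternatives run.

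GARS and CARS moved less and their calls were fragile. GARS, the glycine enzyme of both compartments, had 303, 300 and 226 CPM in shCon and 169, 200 and 199 CPM in shSOX4. The groups did not overlap, but shCon 3 was nearer to the knockdown libraries than to the other controls. Its log2 fold change was -0.55 (standard error 0.167, adjusted p = 0.0221). The call was lost without any single library other than shCon 3 (adjusted p of 0.0531 to 0.0933). With the replicate number as a block it was lost too (adjusted p = 0.0691). CARS, the cysteine enzyme, had 145, 153 and 164 CPM in shCon and 115, 109 and 120 CPM in shSOX4, again with no overlap. It had a log2 fold change of -0.43 (standard error 0.150, adjusted p = 0.0415), a call lost whichever library was left out (adjusted p of 0.0579 to 0.177). The call was also lost on log2(FPKM + 1) in limma (adjusted p = 0.0516) and with the replicate number as a block.

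The largest change of the family was a rise. RARS, the arginine enzyme of the complex, had 23.1, 20.8 and 19.1 CPM in shCon and 45.7, 61.2 and 55.6 CPM in shSOX4. Every knockdown library stood far above every control. The log2 fold change was 1.36 (standard error 0.186, 95% interval 0.97 to 1.76, adjusted p = 0.00012). AIMP1, the scaffold that binds RARS in the complex and is also cut to a secreted cytokine, had 20.1, 15.9 and 12.7 CPM in shCon and 31.3, 33.4 and 32.2 CPM in shSOX4. The knockdown libraries were close together and above all controls, a rise of 0.99 on the log2 scale (standard error 0.201, adjusted p = 0.00239). Both calls held in all 16 alternatives.

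HARS, the histidine enzyme, had 70.3, 81.3 and 73.9 CPM in shCon and 118, 117 and 139 CPM in shSOX4. The groups stood clearly apart, and HARS rose by 0.73 on the log2 scale (standard error 0.160, adjusted p = 0.00387) in every alternative. EEF1E1, also called AIMP3, a small scaffold that docks MARS, had 46.1, 54.5 and 46.7 CPM in shCon and 76.6, 64.9 and 83.2 CPM in shSOX4. Its groups did not overlap, and the log2 fold change was 0.61 (standard error 0.172, adjusted p = 0.0155). The call was lost without shCon 1 (adjusted p = 0.0542) or shSOX4 3 (adjusted p = 0.0599). It was also lost with the replicate number as a block (adjusted p = 0.0628). The scaffold rose, and the enzyme it docks fell. TARS, the threonine enzyme, had 155, 151 and 106 CPM in shCon and 161, 241 and 221 CPM in shSOX4. The highest control and the lowest knockdown library were close. Its log2 fold change of 0.60 (standard error 0.194, adjusted p = 0.0296) was lost without shCon 3 (adjusted p = 0.0708), shSOX4 2 (adjusted p = 0.151) or shSOX4 3 (adjusted p = 0.0919), under total-count scaling (adjusted p = 0.0549) or on log2(FPKM + 1) in limma (adjusted p = 0.0781).

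**Figure D2:**
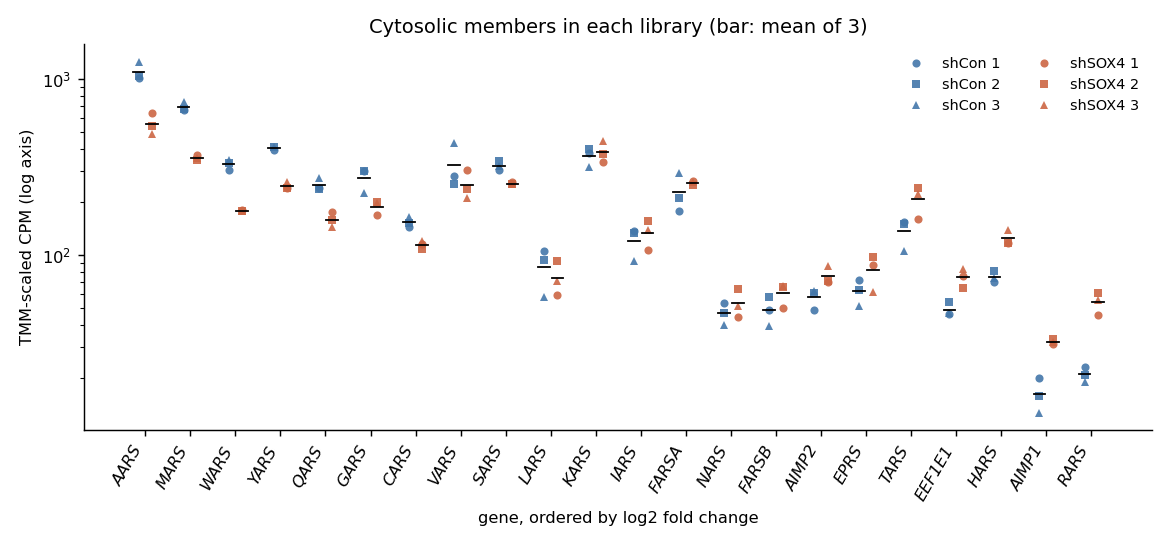
TMM-scaled CPM (log axis) of 22 cytosolic members in each library, ordered by log2 fold change; blue is shCon, orange shSOX4, symbols mark the replicate number and black bars the mean of 3. From AARS to CARS the orange points all lie below the blue ones, and from TARS to RARS all above.

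The other 11 cytosolic members did not pass the test. SARS, the serine enzyme, came nearest among the lower ones, with 304, 344 and 321 CPM in shCon and 259, 255 and 252 CPM in shSOX4. Its groups did not overlap (log2 fold change -0.34, standard error 0.146, adjusted p = 0.0873), and it passed without both shCon 3 and shSOX4 1 (adjusted p = 0.0396). AIMP2, the core scaffold of the complex, had 49.0, 60.9 and 62.7 CPM in shCon and 70.5, 71.2 and 87.4 CPM in shSOX4, all higher (0.41, standard error 0.175, adjusted p = 0.0864; 0.0113 without the 2 libraries and 0.0497 on log2(FPKM + 1) in limma). EPRS, the enzyme of glutamate and proline, had a value of 0.41 (adjusted p = 0.128; 0.0498 without shSOX4 3). VARS, the valine enzyme, ranged from 255 to 434 CPM in shCon and from 212 to 305 CPM in shSOX4 (-0.36, adjusted p = 0.194). The wide control range of VARS came from shCon 3, its highest library. The remaining 7, among them LARS, KARS, IARS, FARSA, NARS and FARSB, overlapped between groups and had values between -0.21 and 0.32. Of these, FARSA passed without both shCon 3 and shSOX4 1 (0.39, adjusted p = 0.0279). Their 95% intervals, such as -0.27 to 0.43 for KARS, leave room for changes of moderate size.

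The FARSA and FARSB subunits form a single phenylalanine enzyme, and neither passed (0.18 and 0.32). Of the 8 synthetases in the multi-synthetase complex (among them EPRS, IARS, LARS, QARS, MARS, KARS and RARS), 2 fell (25.0%) and 1 rose (12.5%), with a median log2 fold change of 0.12. Of all features 15.8% fell and 17.0% rose. Of the 3 scaffolds 2 rose and 0 fell (edgeR; 0 fell at an unadjusted p under 0.05 and 0 by DESeq2 or limma-voom). Of the 12 free cytosolic synthetase genes 5 fell (41.7%) and 2 rose (16.7%), with a median of -0.35. Synthetases also divide into a pair of unrelated structural classes. In class I (CARS, EPRS, IARS, LARS, MARS, QARS, RARS, VARS, WARS and YARS) 5 of 10 fell (50%) and 1 rose (10.0%), with a median of -0.39. EPRS, which charges both glutamate and proline, was counted in class I only, so the split does not separate its activities. In class II (among them AARS, FARSA, FARSB, GARS, HARS, KARS, NARS, SARS and TARS) 2 of 10 fell (20.0%) and 2 rose (20.0%), near the shares of all features, with a median of 0.18. These groups overlap in membership with each other and their differences were not tested.

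Among the cytosolic members that carry TTGCATCA in their windows, printed above, AARS, MARS and CARS fell, TARS rose, and IARS (0.15) and NARS (0.18) did not pass. Of the 6 that fell and have a window, 3 held the motif and 3, GARS, QARS and WARS, did not. Of the 5 that rose, only TARS held it. The windows of 7 members, among them YARS, VARS, LARS, AARS2 and VARS2, were not analysed here.

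Mitochondrial members were less abundant and most did not pass. EARS2, which charges mitochondrial tRNA with glutamate for both glutamate and glutamine codons, had 45.9, 53.0 and 52.0 CPM in shCon and 25.4, 25.8 and 30.3 CPM in shSOX4. The groups stood far apart, and 54.0% remained (log2 fold change -0.89, standard error 0.175, adjusted p = 0.00199). VARS2, the valine enzyme, had 61.9, 65.9 and 89.7 CPM in shCon and 49.9, 41.1 and 33.6 CPM in shSOX4. All knockdown libraries were lower, although shCon 3 was well above the other controls, and VARS2 had a log2 fold change of -0.80 (standard error 0.202, adjusted p = 0.00863). Both calls held in all 16 alternatives. TARS2, the threonine enzyme, had 167, 164 and 196 CPM in shCon and 140, 117 and 107 CPM in shSOX4, with no overlap. Its log2 fold change was -0.53 (standard error 0.164, adjusted p = 0.023). The call was lost without shSOX4 2 (adjusted p = 0.103) or shSOX4 3 (adjusted p = 0.0997), and with the replicate number as a block.

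RARS2, the mitochondrial arginine enzyme, had 12.3, 10.5 and 6.12 CPM in shCon and 13.6, 21.3 and 22.4 CPM in shSOX4. The lowest library of each group was shCon 3 and shSOX4 1, and shSOX4 1 lay just above the controls. It rose by 0.98 on the log2 scale (standard error 0.268, adjusted p = 0.013), a call lost without shSOX4 2 (adjusted p = 0.0545) or shSOX4 3 (adjusted p = 0.0607). WARS2, the mitochondrial tryptophan enzyme, had only 5.76, 7.44 and 6.79 CPM in shCon and 8.59, 10.7 and 10.6 CPM in shSOX4. Its groups did not overlap, and its log2 fold change of 0.58 had an adjusted p of 0.0496, lost without any single library except shSOX4 1 (adjusted p of 0.0626 to 0.163). The call was also lost with total-count scaling, limma-voom, limma on log2(FPKM + 1) or without newGene loci (features named so in the table) (adjusted p of 0.0519 to 0.0716). With the replicate number as a block it was lost as well.

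The other 13 mitochondrial members did not pass. AARS2, the alanine enzyme, had 46.8, 51.9 and 66.1 CPM in shCon and 43.5, 35.2 and 38.9 CPM in shSOX4. Its knockdown libraries were all lower (-0.49, standard error 0.187, adjusted p = 0.059), and it passed with total-count scaling (adjusted p = 0.0451), by DESeq2 (adjusted p = 0.0393), without shSOX4 1 (adjusted p = 0.042) and with both libraries that stand apart left out (adjusted p = 0.0311). CARS2, the cysteine enzyme, was higher in every knockdown library, with 35.0, 40.0 and 44.8 CPM in shCon and 47.8, 52.5 and 65.0 CPM in shSOX4. Its log2 fold change of 0.46 missed the threshold (adjusted p = 0.0669) but passed by DESeq2 (adjusted p = 0.0397) and when shCon 3 (adjusted p = 0.0344), shSOX4 1 (adjusted p = 0.0316) or the pair of them (adjusted p = 0.00295) was left out. PARS2, the proline enzyme, at 6.84 to 8.99 CPM on average, was lower in every knockdown library (-0.39, adjusted p = 0.186). QRSL1, the catalytic subunit of the glutamyl-tRNA amidotransferase, had 17.3, 13.2 and 9.62 CPM in shCon and 11.3, 21.1 and 23.5 CPM in shSOX4. The groups overlapped through shSOX4 1 (0.48, adjusted p = 0.197), and without that library it passed (0.74, adjusted p = 0.0179). The remaining 9, among them SARS2, MARS2, IARS2, HARS2, FARS2, NARS2, LARS2 and YARS2, overlapped between groups and had values from -0.27 to 0.36.

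**Figure D3:**
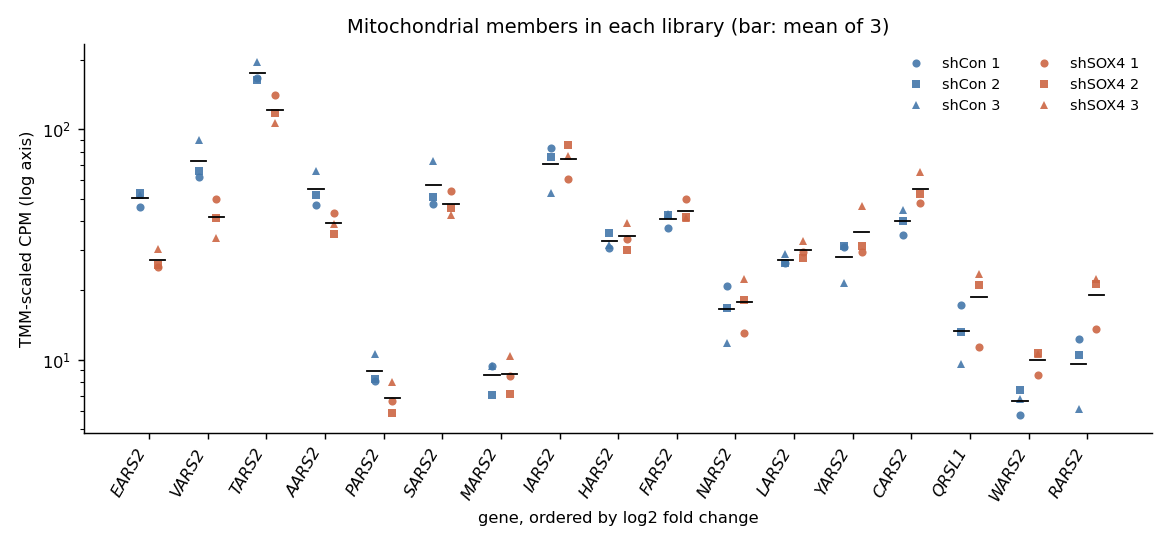
TMM-scaled CPM (log axis) of 17 mitochondrial members in each library, ordered by log2 fold change, with colours, symbols and bars as for the cytosolic members. EARS2, VARS2 and TARS2 at the left and WARS2 and RARS2 at the right have no overlap between groups, while SARS2 to YARS2 in the middle overlap.

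A further view needs no scaling between libraries. For each amino acid with a gene in both compartments, the ratio of cytosolic to mitochondrial CPM was taken within each library, 18 pairs in all (EPRS was set against EARS2 and PARS2, and FARSA and FARSB each against FARS2). For 5 pairs every knockdown ratio was below every control ratio, for 5 every one was above, and 8 overlapped. For single features the groups lay apart in 47.0% of cases, and the like share for ratios was not computed. With 3 libraries against 3, the exact two-sided permutation test cannot go below p = 0.1, which all 10 of these pairs reached (adjusted p = 0.18 over the 18 pairs), so none could pass.

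The pair that shifted farthest down was tryptophan. The log2 ratio of WARS to WARS2 was 5.72, 5.49 and 5.68 in shCon and 4.39, 4.06 and 4.07 in shSOX4, so about 49.5 cytosolic reads for each mitochondrial one became 18.0. The genes moved in opposite directions. For tyrosine (YARS to YARS2) the mean log2 ratio went from 3.88 to 2.82, for methionine (MARS to MARS2) from 6.35 to 5.38, for cysteine (CARS to CARS2) from 1.95 to 1.07 and for alanine (AARS to AARS2) from 4.34 to 3.83. In the other direction, EPRS to EARS2 was 0.65, 0.25 and -0.02 in shCon and 1.79, 1.92 and 1.04 in shSOX4. TARS to TARS2 was -0.11, -0.12 and -0.89 in shCon and 0.20, 1.04 and 1.05 in shSOX4, so that TARS2 had more reads in every control library and TARS in every knockdown library. HARS to HARS2 went from a mean of 1.20 to 1.86, VARS to VARS2 from 2.14 to 2.60 and IARS to IARS2, whose groups barely separated, from 0.78 to 0.85. The arginine pair kept overlapping ratios (means of 1.18 and 1.53), and both of its genes rose in shSOX4.

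**Figure D4:**
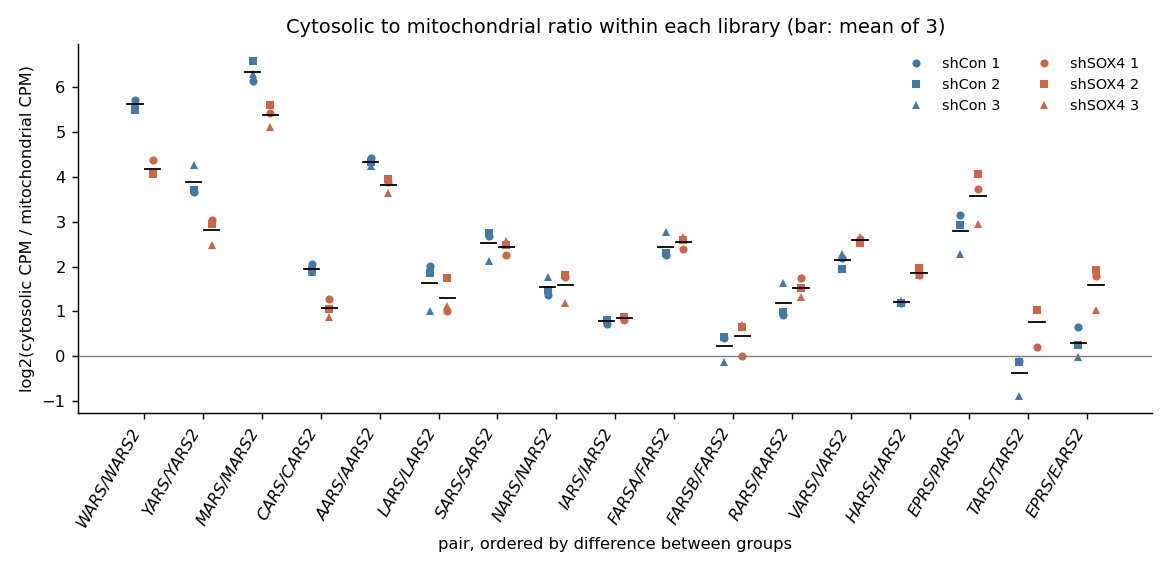
Log2 ratio of cytosolic to mitochondrial CPM within each library for 17 pairs, ordered by the difference between groups; blue is shCon, orange shSOX4, symbols mark the replicate number and black bars the mean of 3. WARS/WARS2 at the left drops by 1.46 and EPRS/EARS2 at the right rises by 1.29, and 7 of the pairs shown overlap.

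HARS and HARS2 stand head to head on chromosome 5, and the 84 bases between their starts, chr5:140691371-140691454 on the plus strand in GRCh38.p14, lie before both genes. They are printed here because HARS rose while HARS2 did not pass (32.6 ± 2.62 CPM in shCon and 34.3 ± 4.68 CPM in shSOX4, SD, n = 3 each; log2 fold change 0.07, 95% interval -0.31 to 0.46). The log2 ratio of HARS to HARS2 was 1.20, 1.19 and 1.23 in shCon and 1.81, 1.96 and 1.82 in shSOX4, with no overlap.
HARS-HARS2: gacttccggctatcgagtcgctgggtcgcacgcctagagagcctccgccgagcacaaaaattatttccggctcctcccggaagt
The stretch is 59.5% G and C and holds no TGATGNAA. HARS and HARS2 are also close in coding sequence, so how reads were divided between them is uncertain.

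Levels can be compared between genes per length, as FPKM (fragments scaled to gene length and library size). Cytosolic members had a median of 45.8 FPKM in shCon, from 6.03 (AIMP1) to 295 (AARS), and mitochondrial members a median of 12.3 FPKM, from 2.21 (WARS2) to 62.9 (TARS2). Next to AARS stood MARS (201 ± 7.35 FPKM, SD, n = 3), KARS (166 ± 27.7) and SARS (162 ± 14.0), and the last 2 did not differ beyond their spread. TARS2 was the mitochondrial member with a level above its cytosolic counterpart by the widest margin, 62.9 ± 3.44 FPKM against 30.8 ± 8.23 for TARS in shCon. In shSOX4 the same genes were at 44.1 ± 5.84 and 45.4 ± 10.2 FPKM, a difference within the spread. KARS, not AARS, had the top mean level in shSOX4, at 175 ± 25.4 FPKM against 151 ± 20.9 for AARS, within the spread.

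The cytosolic members were also divided by level, a split made after the values were seen. Of the 11 with the higher mean FPKM over all 6 libraries (58.3 to 223) 6 fell and 1 rose, with a median log2 fold change of -0.55. Of the 12 with the lower (8.88 to 51.5) 1 fell and 4 rose, with a median of 0.37. Of all features, 1494 had a mean of 58.3 FPKM or more, up to 9283, far beyond the range of the members. Another 3845 had 8.88 to 58.3 FPKM. The medians of these sets were -0.01 and -0.12. At the higher level 14.3% fell and 16.1% rose, and at the lower 19.7% and 12.3%. Among the members the exception at the higher level was EEF1E1, which rose, and at the lower CARS, which fell. The summed level of the 23 cytosolic members went from 5030, 5188 and 5417 CPM in shCon to 3940, 4011 and 3971 CPM in shSOX4, although nearly as many members rose as fell. The 18 mitochondrial members summed to 722, 737 and 786 CPM in shCon and 654, 656 and 688 CPM in shSOX4. Neither pair of ranges overlaps. Among single features the groups lay apart in 47.0% of cases, and the like share for sums was not computed. The sums are weighted towards members with many reads, such as AARS (mean 1105 CPM in shCon, 559 in shSOX4) and TARS2 (176 and 121). The 7 cytosolic members that fell summed to 3064, 3161 and 3426 CPM in shCon and 1896, 1777 and 1750 in shSOX4. These 7 were chosen because they fell in the same libraries, so their lower sum was fixed in advance. Another 5 cytosolic members rose, so the sums do not describe every member.

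**Figure D5:**
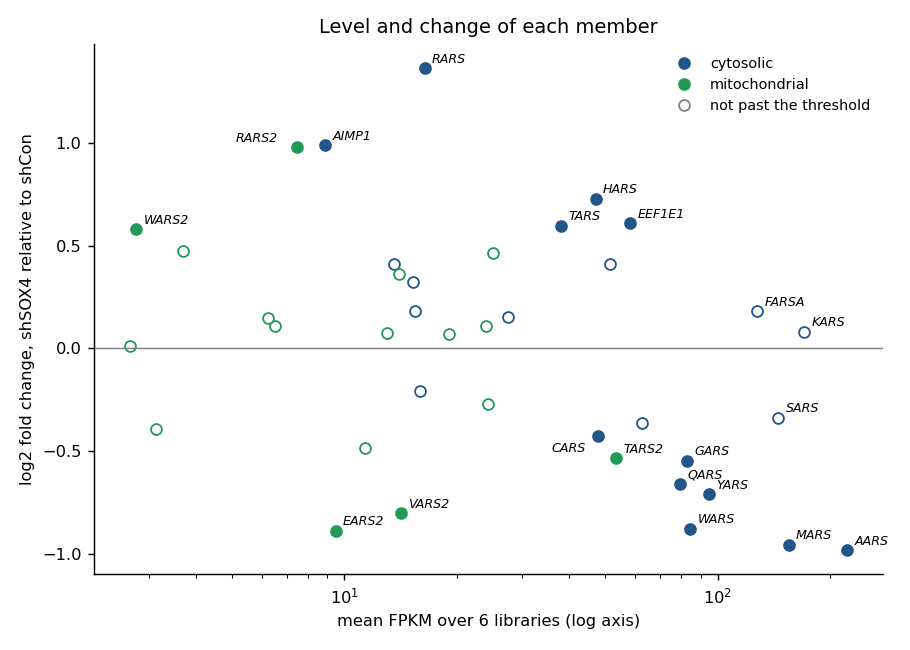
Log2 fold change (y axis) against mean FPKM over the 6 libraries (log x axis) for each of 39 members; blue is cytosolic, green mitochondrial, filled points have an adjusted p under 0.05. Filled blue points below 0 reach up to AARS at 223 FPKM and those above 0 up to EEF1E1 at 58.3 FPKM; CARS, below 0, lies to the left of EEF1E1, so the ranges of level overlap.

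The libraries shCon 3 and shSOX4 1 also shared their place within the groups for many members. In 16 of the 41 members (39.0%) both were the lowest of their group, against 29.9% of all features, and in 11 (26.8%) both were the highest, against 28.8%. The low set included LARS, IARS, NARS, KARS, GARS, FARSB, TARS, RARS and AIMP1, and in mitochondria RARS2, QRSL1, NARS2, IARS2 and YARS2. LARS, the leucine enzyme and a sensor of leucine for the kinase mTORC1, had 105, 94.4 and 58.2 CPM in shCon and 59.3, 93.1 and 71.0 CPM in shSOX4. Without the 2 libraries its log2 fold change was -0.28 and still did not pass (adjusted p = 0.145). What sets these libraries apart was not tested.

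The genes around the synthetases were taken from lists chosen with earlier results of these data known, so they do not support one another. Of 18 measured genes that make the amino acids to be charged, 13 fell (72.2%) and 1 rose, against 15.8% and 17.0% of all features. The median log2 fold change of the 18 was -0.73. The falls numbered 9 when shCon 2 or shSOX4 2 was left out. They numbered 14 when shCon 3 and shSOX4 1 were both left out, where 19.5% of all features fell. SHMT2, which makes glycine from serine in mitochondria, had 984, 1092 and 1366 CPM in shCon and 678, 553 and 531 CPM in shSOX4. All knockdown libraries were lower (-0.97, standard error 0.167, adjusted p = 0.000799). PHGDH, which starts serine synthesis, had a value of -1.04 (adjusted p = 0.000711) and GPT2, which makes alanine, of -0.98 (adjusted p = 0.000943). The exception was ASS1, which joins citrulline and aspartate on the way to arginine. It had 138, 140 and 162 CPM in shCon and 677, 604 and 544 CPM in shSOX4, a rise of 2.05 on the log2 scale (standard error 0.161, adjusted p = 6.79e-07).

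ATF4 itself had 883, 993 and 985 CPM in shCon and 723, 629 and 675 CPM in shSOX4. Its groups did not overlap, and it had a log2 fold change of -0.50 (standard error 0.143, adjusted p = 0.0173), lost without shCon 2, shSOX4 2 or shSOX4 3 and with limma on log2(FPKM + 1). Among ATF4 and its known targets other than synthetases, 32 genes, 19 fell (59.4%) and 1 rose, with a median of -0.64. Of all features 15.8% fell and 17.0% rose. The falls numbered 15 without shCon 2, shSOX4 2 or shSOX4 3. Several, among them PHGDH, SHMT2 and GPT2, were also counted in the list of amino acid synthesis, so the counts are not separate. The falls of the ATF4 list with the smallest adjusted p were STC2 (-1.16), NUPR1 (-1.46), PHGDH and SHMT2. The rise, named after its value was seen, was the amino acid transporter gene SLC38A2 (0.89, adjusted p = 0.00245), and 2 rose without shCon 3. EIF2AK4, the kinase that senses uncharged tRNA, overlapped between groups (0.10, adjusted p = 0.79). Of 13 genes that sense or control the response 3 rose (23.1%) and 1 fell (7.69%), against 17.0% and 15.8% of all features. EIF2S1, the subunit that the kinases phosphorylate, rose by 1.20 on the log2 scale (adjusted p = 0.000619), PPP1R15B, of its phosphatase, by 1.01 (adjusted p = 0.00214) and the kinase gene EIF2AK3 by 0.89 (adjusted p = 0.0483), and the stress-induced phosphatase subunit gene PPP1R15A fell by 0.59 (adjusted p = 0.0146); 5 rose without shSOX4 1, 2 without shCon 2, shCon 3, shSOX4 2 or shSOX4 3, and 0 fell without shSOX4 2.

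Downstream of charging, the lists were short. Of all features 17.0% rose and 15.8% fell, and no difference from these shares was tested. Of 5 genes of the elongation factor that brings charged tRNA to the ribosome only EEF1B2 (20.0%) rose (0.59, adjusted p = 0.00929). Without shSOX4 1 the number of rises was 2. In this list 0 fell in edgeR, at an unadjusted p under 0.05 or by DESeq2 or limma-voom. A mitochondrial list of 9 genes is wider and also holds initiation factors. Only MTIF2 (11.1%), an initiation factor, rose in it (0.79, adjusted p = 0.031). The number of rises was 0 without shCon 3, shSOX4 2 or shSOX4 3, 2 without shCon 1 and 3 without shSOX4 1. In that mitochondrial list 0 fell (1 at an unadjusted p under 0.05, 1 by DESeq2 and 0 by limma-voom; 1 without shCon 3).

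Genes that mature tRNA are set beside the 17.0% of all features that rose and the 15.8% that fell, with no test of the difference. Of 24 genes of trimming, splicing and export 6 rose (25.0%) and 1 fell (4.17%), with a median of 0.31. Without both shCon 3 and shSOX4 1, where 21.4% of all features rose, 9 of the 24 rose. DDX1, of the tRNA ligase complex, rose by 1.31 (adjusted p = 0.000213) and the ribonuclease P subunit genes RPP30 and RPP40 by 0.84 and 1.01, while the splicing endonuclease gene TSEN34 fell by 0.75 (adjusted p = 0.00414). The number of rises there was 4 without shCon 1 or shSOX4 2 and 2 without shSOX4 3, and the number of falls 2 without shCon 1 or shSOX4 1. Of 18 genes of mitochondrial tRNA trimming and modification 5 rose (27.8%) and 2 fell (11.1%). HSD17B10 and TRMT10C, subunits of mitochondrial ribonuclease P, rose by 1.05 (adjusted p = 0.000585) and 1.14 (adjusted p = 0.00198). TRMU rose by 0.82 and QTRT1 fell by 0.52 (adjusted p = 0.04). The rest, named after their values were seen, were TRNT1 (0.61), TRIT1 (0.87) and GTPBP3 (-0.59), with adjusted p of 0.0415, 0.0446 and 0.0461. In this mitochondrial list 3 rose without any single control library or without shSOX4 2, and 2 without shSOX4 3, and falls were 1 without shCon 1 or shCon 2 and 0 without shCon 3, shSOX4 2 or shSOX4 3.

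Of 21 genes of RNA polymerase III and its factors, which transcribe tRNA genes, 4 rose (19.05%) and 2 fell (9.52%), with a median of 0.12, against 17.0% and 15.8% of all features. The share that rose is near that of all features. POLR3B rose by 1.13 (adjusted p = 0.00703), POLR3F by 1.10, GTF3C3 by 0.86 and, named after its value was seen, POLR3K by 0.50, and POLR3GL fell by 0.68 (adjusted p = 0.0151), as did POLR3D (-0.45, adjusted p = 0.0491), also named afterwards. Here 1 rose without shSOX4 2 or shSOX4 3, and leaving out shCon 3 or shSOX4 1 left 1 fall, any other library 0. Of 27 genes of cytosolic tRNA modification 3 rose (ALKBH8, 1.10; TRMT6, 0.77; TRDMT1, 1.04) and 1 fell (CTU2, -0.66), with a median of -0.01. These are 11.1% and 3.70%, both below the shares of all features. In this list 7 rose without both shCon 3 and shSOX4 1, where 21.4% of all features rose. The rises were 1 without shSOX4 2 or shSOX4 3, and 2 without shCon 1. Falls in this list were 2 without shCon 1 or shSOX4 1 and 0 without shCon 3, shSOX4 2 or shSOX4 3.

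In the authors' deposited table, where 37.0% of features are called (17.8% lower and 19.2% higher) at a false discovery rate under 0.05, 7 cytosolic members are lower and 5 higher, the same 12 as called here. For mitochondrial members the authors' deposited table calls 4 lower and 3 higher, adding AARS2 (log2 fold change -0.46, adjusted p = 0.0393) and CARS2 (0.45, adjusted p = 0.0398) to the 5 called here.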

How the data were processed

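RNA-seq of 3 shCon and 3 shSOX4 libraries came as 1 table with Ensembl identifiers, which covers all members of both compartments. Per the file headers the deposited table gives counts, whole and unscaled, and FPKM, which the authors scaled for length and depth. The authors' adjusted p-value and the authors' log2 fold change come from the same table, made with a tool the sources used here do not name. Tools listed without roles in the submitters' processing notes are Bowtie2, HISAT2, STAR, MACS2 2.1.1 and deepTools 2.07, with hg19 as the genome. What counted the reads, and whether by strand, is unstated in the sources used here, so reads shared by close paralogues or overlapping genes are uncertain. Columns with NC and SH were read as shCon and shSOX4. Every feature has at least 1 CPM in at least 3 libraries, so low genes were removed before deposition. All 41 members were matched to current symbols.

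The quasi-likelihood F test of edgeR 4.0.16 (R 4.3.3) was run on the counts with group as its only term, after TMM scaling and filterByExpr, adjusted over all 13527 features. That filter removed no feature, so the alternative with no filter repeats the main fit. Levels are TMM-scaled CPM per library, and SE and 95% intervals come from the fit. The script was tested on simulated data. No label says whether replicate libraries are separate cultures. The p-values therefore reflect library spread alone, which may be technical. Promoter windows are from RefSeq, GRCh38.p14. Protein features were not analysed here. The values of a few single genes are not reported here, though these genes stay in all fits and counts. Alternatives were RLE and total-count scaling, other filters, DESeq2 1.42.0, limma-voom (limma 3.58.1), limma on log2(FPKM + 1), the replicate number as a block, and libraries left out. All members, SOX4, ATF4, EIF2AK4 and the 4 called genes with the smallest adjusted p of each list were to be named, apart from these. The members and lists were chosen with earlier results of these data known.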

Additional observations from a re-analysis of the deposited data

How the results depend on the processing

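Of the 17 members called, 10 passed in all 16 alternatives (AARS, MARS, WARS, YARS, QARS, RARS, AIMP1, HARS, EARS2 and VARS2). The number of mitochondrial members that rose was 2 and became 1 with total-count scaling, limma-voom, the replicate block, limma on log2(FPKM + 1) or without newGene loci, 4 without both shCon 3 and shSOX4 1, and 0 to 4 with 1 library left out; the cause was not tested. Leaving out 1 library gave 1411 to 2653 features higher and 1098 to 2313 lower. Restricting the motif to the 250 bases before the start left 2 cytosolic windows, since the other matches reach past it. Values that changed sign belonged to genes far from the threshold: KARS was -0.0247 to 0.18 with 1 library left out, IARS -0.0053 to 0.30, MARS2 -0.13 to 0.13, HARS2 -0.0285 to 0.16, NARS2 -0.0800 to 0.32, IARS2 -0.10 to 0.20 and EIF2AK4 -0.11 to 0.35; the cause was not tested. Deviations from the group means correlated at -0.29, 0.16 and -0.29 between same-numbered libraries of the 2 groups. Between shCon 3 and shSOX4 1 the correlation was 0.49. Deviations from a mean of 3 libraries depend on each other, so they cannot show whether same-numbered libraries shared a batch. With the replicate block 4 cytosolic members rose and 5 fell, 1 mitochondrial member rose and 2 fell, and 1825 features were higher and 1549 lower.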
